A study of Mus musculus with 4 samples.

Results

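Malat1, Neat1, Kcnq1ot1, Airn, Meg3, Mir124a-1hg, Mir124-2hg, Otx2os1 and Snhg3 are long noncoding RNA genes of the mouse that either keep their transcripts in the nucleus or host a small RNA in their introns or exons. They are 9 of the 32285 genes in the count tables, and each was detected in all 4 libraries. They were chosen by measured values of these same libraries, so their levels, their order over cell classes and their ratios between libraries are given below as descriptions, with no test. The libraries were single-cell RNA-seq of RPE-choroid, the retinal pigment epithelium with the vascular coat behind it, left after the neural retina was taken off the posterior eye. The groups were Vldlr-/- mice at 1 month, WT mice at 1 month, Vldlr-/- mice at 2 months and WT mice at 2 months, with 1 library each. Vldlr encodes the very low density lipoprotein receptor, and no driver that would confine its loss to a cell type was given for the Vldlr-/- mice. Strain, sex and the number of animals behind a library were not given in the sources used here. All 4 tissues went through collagenase A, Dispase II and trypsin and a step that removed dead cells before droplet capture. With 1 library per group no difference between genotypes has a replicate check, and the cell classes of a library are not replicates of it.

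Malat1 and Neat1 lie side by side in the genome. Malat1 RNA collects in nuclear speckles, where splicing factors are stored, and Neat1 RNA is the scaffold of paraspeckles. Kcnq1ot1, Airn and Meg3 come from imprinted loci, where only the copy inherited from 1 parent is transcribed. Kcnq1ot1 and Airn are read from the paternal copy, antisense through Kcnq1 and Igf2r, and silence neighbouring genes on that chromosome in mouse embryos and placenta, while Meg3 is read from the maternal copy beside Dlk1. Mir124a-1hg and Mir124-2hg are precursors of the neuronal microRNA miR-124, which is abundant in photoreceptors. Otx2os1 starts near Otx2, a transcription factor of photoreceptors and pigment epithelium, on the opposite strand. Snhg3 is spliced in the usual way, and its excised introns yield small nucleolar RNAs.

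The tables count transcripts by a short read next to a stretch of A, so where a long noncoding RNA ends, and whether it holds A runs inside, bears on what is counted. The annotated last 90 bases of the longest transcript of 5 members are shown for that reason, in GRCm38 coordinates, 5′ to 3′. The poly(A) signal letters AATAAA or ATTAAA are in capitals. Malat1-201 ends at chr19:5795690-5795779 on the minus strand, Kcnq1ot1-201 at chr7:143203458-143203547 on the minus strand, Airn-205 at chr17:12830246-12830335 on the plus strand, Meg3-209 at chr12:109571637-109571726 on the plus strand and Snhg3-202 at chr4:132351934-132352023 on the minus strand.
Malat1: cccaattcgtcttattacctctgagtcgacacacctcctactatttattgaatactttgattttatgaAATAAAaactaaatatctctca
Kcnq1ot1: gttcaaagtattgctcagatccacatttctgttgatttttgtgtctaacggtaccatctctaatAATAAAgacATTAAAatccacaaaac
Airn: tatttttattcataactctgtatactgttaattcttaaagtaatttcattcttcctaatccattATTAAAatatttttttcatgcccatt
Meg3: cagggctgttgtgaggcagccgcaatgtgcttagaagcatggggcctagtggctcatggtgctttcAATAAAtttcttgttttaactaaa
Snhg3: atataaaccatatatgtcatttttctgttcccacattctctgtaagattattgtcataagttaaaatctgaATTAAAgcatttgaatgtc
Each of the 5 ends holds at least 1 of the 2 motifs, searched on the transcribed strand only, and so do the last 90 bases of the longest transcript of 62.0% of the 32158 annotated genes in the tables. A match describes the letters and is not a mapped cleavage site. The ends of Airn-205 and Snhg3-202 lie inside their annotated loci, which run on to 12860136 and 132348014. Inside the transcripts, Kcnq1ot1 has 30 runs of at least 8 A, Meg3 has 7, and Malat1 has 1, of 12 A. Mir124-2hg also has 1, of 31 A, and Mir124a-1hg has 0. The longest run in Kcnq1ot1, 41 A in capitals at chr7:143226920-143227010 on the minus strand, is shown with 25 bases on each side.
Kcnq1ot1 internal A run: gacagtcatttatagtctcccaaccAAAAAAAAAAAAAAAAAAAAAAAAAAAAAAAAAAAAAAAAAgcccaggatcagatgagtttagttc

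In the annotation the whole loci are Malat1 at chr19:5795690-5802672, Neat1 at chr19:5824708-5845478, Kcnq1ot1 at chr7:143203458-143296549, Airn at chr17:12741311-12860136, Meg3 at chr12:109541001-109571726, Mir124a-1hg at chr14:64587331-64593961, Mir124-2hg at chr3:17789921-17808970, Otx2os1 at chr14:48668708-48870683 and Snhg3 at chr4:132348014-132353686. Exons cover all of the Malat1, Neat1 and Kcnq1ot1 loci, 58.9% of Meg3, 17.4% of Snhg3, 3.03% of Airn and 1.31% of Otx2os1. Kcnq1ot1 lies inside Kcnq1, Airn overlaps Igf2r, and Otx2os1 overlaps Otx2, each on the opposite strand. Snhg3 overlaps Rcc1, a gene for a nuclear exchange factor, on the same strand. Strand cannot part reads of Snhg3 from those of Rcc1 in their overlap. For the opposite-strand overlaps, no source used here says whether the counting used strand, and this was not checked.

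After barcodes with under 300 genes, over 30% mitochondrial UMIs or a doublet call were left out, 6529 of 7943 barcodes remained, 1138 to 2046 per library. Total UMIs, the distinct molecules counted, were 11194301 to 23070272 per library, and the median per kept barcode was 5061.5 to 9008. Clustering without the 9 members gave 30 clusters, of which 26 were named by fixed markers into 14 classes and 4 (528 barcodes) stayed unnamed. Vldlr in RPE-like barcodes was at 10.7 CPM (UMIs per 1000000) in Vldlr-/- and 129 in WT at 1 month, and at 27.0 in Vldlr-/- and 177 in WT at 2 months. Vldlr was thus lower in the Vldlr-/- library in the pigment epithelium at both ages, while in rod-like barcodes at 1 month it was at 213 in Vldlr-/- and 323 in WT. Which exons were deleted was not given, so reads outside them can remain. The Vldlr-/- libraries at 1 and 2 months shared 1 barcode sequence, and no other pair shared any. The classes were unevenly filled: RPE-like barcodes numbered 165 in Vldlr-/- and 237 in WT at 1 month, and 608 in Vldlr-/- and 1457 in WT at 2 months. Rod-like barcodes, a remnant of the removed retina, numbered 479 in Vldlr-/- and 163 in WT at 1 month, and 22 in Vldlr-/- and 38 in WT at 2 months.

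A level below, in CPM, is the summed UMIs of a gene per 1000000 UMIs of the same barcodes, here those of a class in a library. Brackets hold exact 95% intervals, Poisson for levels and binomial for shares and ratios, and they cover counting error only. A ratio between Vldlr-/- and WT, on the log2 scale with 0.5 counts added, was given only where a gene had at least 30 UMIs over both libraries and each side at least 30 barcodes. Levels are compared for 1 gene between classes, not between genes.

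Malat1 had the widest presence of the members, with 1165797 UMIs in 5169 barcodes. By the median over libraries, among classes with at least 30 barcodes, its level was 48705 in rod-like, 41609 in fibroblast-like, 30900 in mural-like, 23740 in B-like, 22461 in NK-like, 18625 in T-like, 14276 in macrophage-like, 13341 in endothelial-like and 3744 in RPE-like barcodes. Rod-like barcodes ranged from 1110 to 52571 over libraries and so overlapped every other class, and fibroblast-like barcodes, from 23865 to 65528, overlapped mural-like and B-like ones. The ranges of macrophage-like, endothelial-like and RPE-like barcodes overlapped too. The pigment epithelium stood lowest by the median, and there the libraries were far apart. Barcodes low in Malat1 were not confined to it. At 1 month the median macrophage-like barcode had 306 CPM in Vldlr-/- (34 barcodes) and 386 in WT (29 barcodes). Of these barcodes, 76.5% in Vldlr-/- and 72.4% in WT lay under 1000 CPM.

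**Figure D1:**
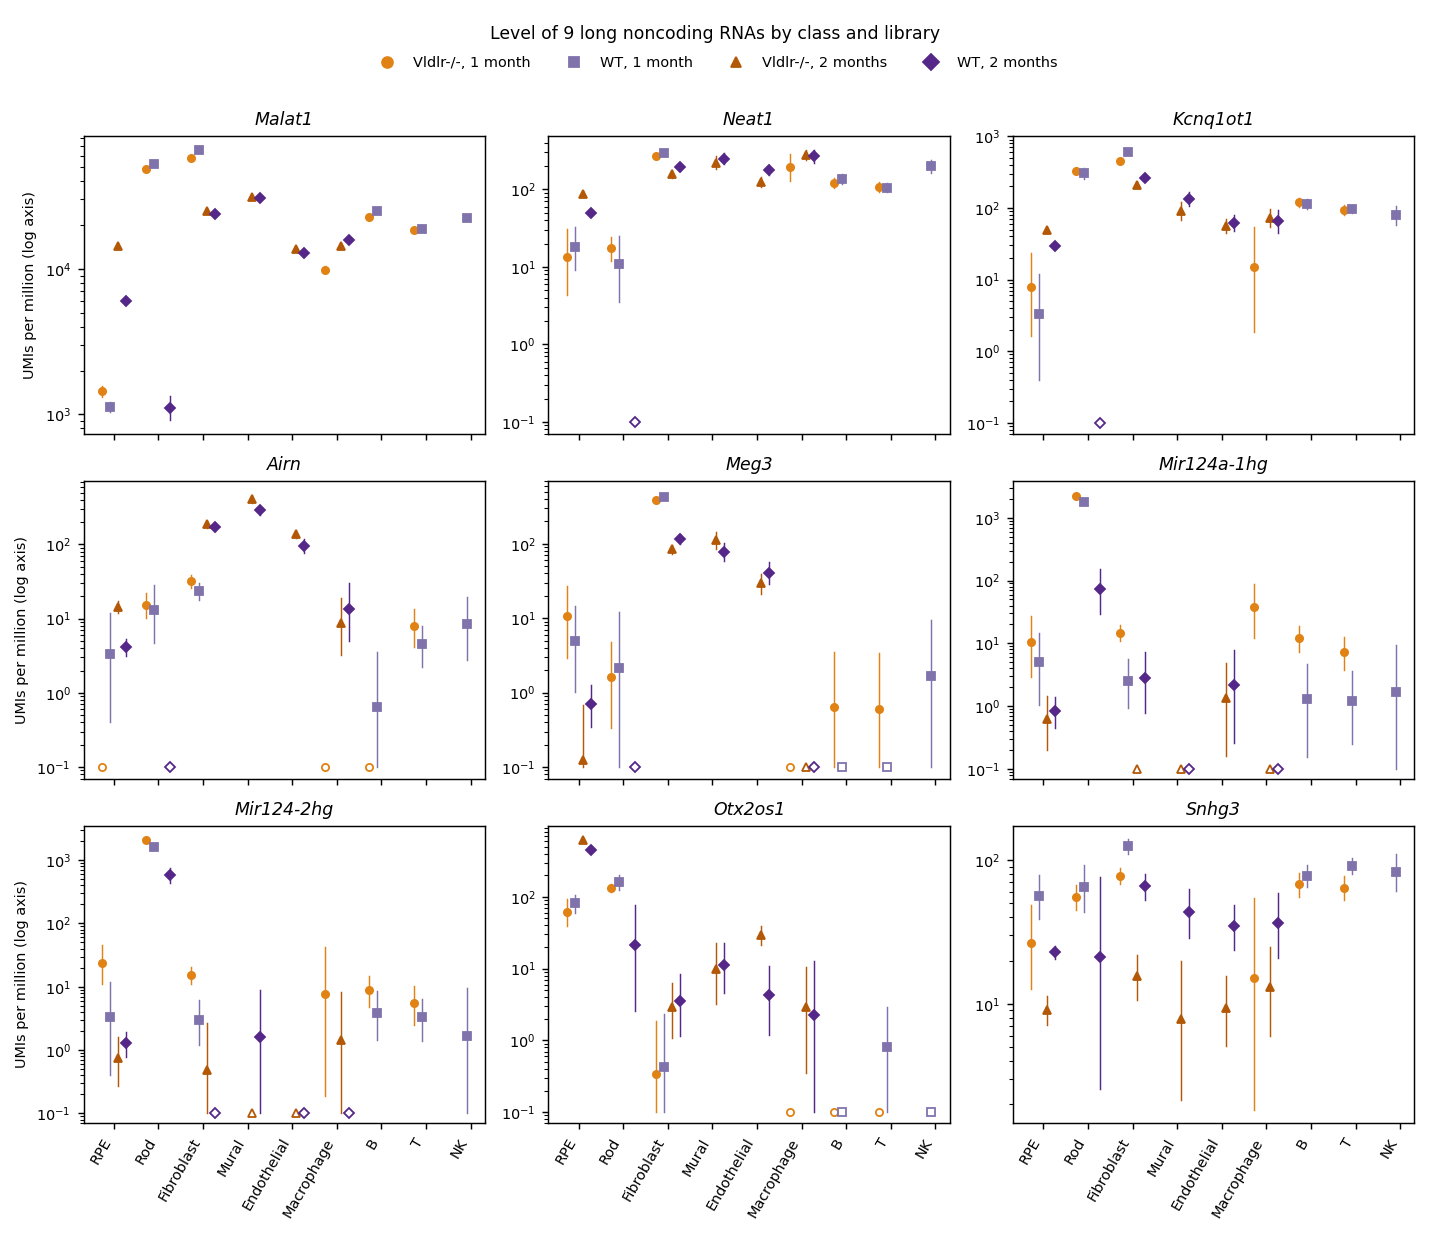
CPM (log axis) of each of the 9 genes in the classes with at least 30 barcodes; filled symbols are levels with exact Poisson 95% intervals, cut at the lower limit of the panel, and open symbols at 0.1 are libraries with 0 UMIs. Mir124a-1hg and Mir124-2hg are highest in rod-like barcodes, Otx2os1 in RPE-like and rod-like and Meg3 in fibroblast-like and mural-like barcodes, and Malat1 in RPE-like barcodes spans 1121 to 14354.

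In RPE-like barcodes Malat1 was at 1436 (1317 to 1563) in Vldlr-/- and 1121 (1038 to 1209) in WT at 1 month. At 2 months it was at 14354 (14272 to 14437) in Vldlr-/- and 6052 (6014 to 6091) in WT. The log2 ratio of Vldlr-/- over WT was 0.36 (0.19 to 0.52) at 1 month and 1.25 (1.23 to 1.26) at 2 months. These sums do not describe a typical barcode: the median RPE-like barcode had 257 CPM of Malat1 in Vldlr-/- and 0 in WT at 1 month, and 187 in Vldlr-/- and 44.3 in WT at 2 months. No Malat1 UMI at all was found in 81 of 165 RPE-like barcodes of Vldlr-/- and 126 of 237 of WT at 1 month, and in 201 of 608 of Vldlr-/- and 713 of 1457 of WT at 2 months. At 1 month the values rest on few barcodes, since 1 barcode held 98 of the 539 Malat1 UMIs in Vldlr-/- and 1 barcode, among the 89 of highest doublet score, held 174 of 676 in WT. The 1-month ratio turned to -0.079 when each barcode counted equally and to -0.074 at a coarser clustering, so no direction is given at that age.

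Malat1 was unevenly spread over the pigment epithelium in all 4 libraries. A limit of 1000 Malat1 CPM in a barcode is used below to split RPE-like barcodes; it marks a range of a continuous value, not a cell type, and Malat1 itself is therefore no result of the split. Below the limit lay 74.5% (67.2 to 81.0) of RPE-like barcodes in Vldlr-/- and 78.5% in WT at 1 month. At that age few UMIs reach the limit. From 1000 to 3000 CPM, 31 barcodes of Vldlr-/- held 79 Malat1 UMIs and 32 of WT held 102. Whether background Malat1 RNA lifts such barcodes over the limit was not tested. At 2 months 72.0% (68.3 to 75.6) lay below it in Vldlr-/- and 88.7% (86.9 to 90.3) in WT. Within 500 to 2000, near the limit, were 43 barcodes of Vldlr-/- and 53 of WT at 1 month, and 70 of Vldlr-/- and 93 of WT at 2 months. At 2 months a separate group at or over 10000 held 104 barcodes, 17.1%, in Vldlr-/- and 108 barcodes, 7.41%, in WT. Above the limit the summed Malat1 level at 2 months was 30730 in Vldlr-/- and 28879 in WT, and below it 165 in Vldlr-/- and 102 in WT. The log2 ratio of Vldlr-/- over WT was 0.09 (0.08 to 0.10) above the limit and 0.70 (0.57 to 0.83) below it. Since Malat1 sets the sides, these values cannot show how much of the class difference lies in the shares of barcodes. Of the 5 RPE-like clusters, 1 lay nearly all above the limit, with 106 barcodes in Vldlr-/- and 111 in WT, both at 2 months.

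**Figure D2:**
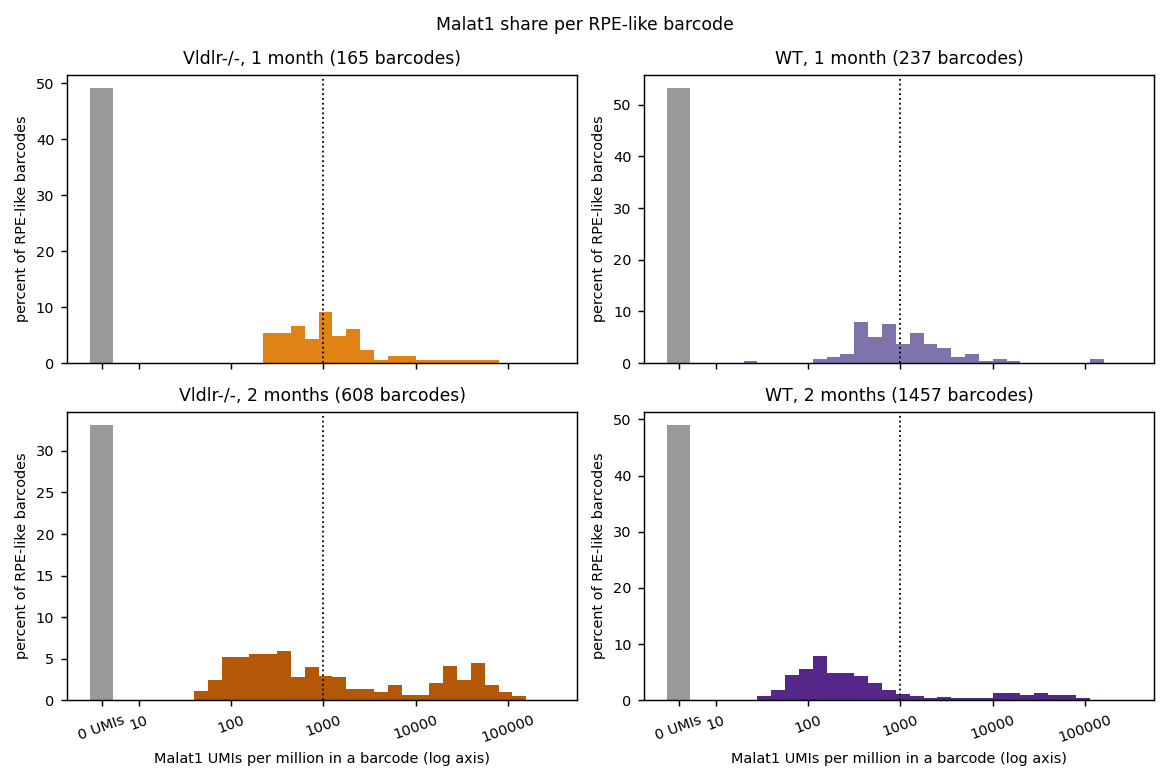
Percent of RPE-like barcodes (vertical) by Malat1 CPM (horizontal, log axis) in each library; the grey bar is barcodes with 0 Malat1 UMIs and the dotted line is 1000. The grey bar holds 201 of 608 barcodes in Vldlr-/- and 713 of 1457 in WT at 2 months, where a separate group over 10000 holds 104 in Vldlr-/- and 108 in WT.

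The Malat1-rich barcodes also differed in depth and mitochondrial share. At 2 months their median was 15228.5 UMIs against 8840.5 in Malat1-poor barcodes of Vldlr-/-, and 15488 against 8070.5 in WT. The rich side was mixed in depth. Its barcodes from 1000 to 3000 CPM had a median of 1645 UMIs in Vldlr-/- and 1807 in WT. Those at or over 10000 had 25425.5 and 20651.5, and held 390 of the 402 rich-side Kcnq1ot1 UMIs in Vldlr-/- and 420 of 441 in WT. The median mitochondrial share of rich barcodes was 3.76% against 2.25% in poor ones of Vldlr-/-, and 6.79% against 2.90% in WT. At 1 month the depths ran the other way, with a median of 1342.5 UMIs against 2161 in Vldlr-/- and 1567 against 2197 in WT. A shallow barcode passes the limit with fewer Malat1 UMIs. Summed rod markers at 1 month were at 1118 in rich and 463 in poor barcodes of Vldlr-/-, and at 652 and 215 in WT. Pigment epithelium markers stayed high on both sides at 2 months: their summed level had a median over barcodes of 51118 in rich and 36545 in poor barcodes of Vldlr-/-, and of 49308 in rich and 53973 in poor barcodes of WT. The median level of rod, fibroblast, endothelial, cone, B, T and red-cell markers was 0 on both sides of both libraries. Other markers were not at 0: the medians in rich and poor barcodes were 1651 and 1603 in Vldlr-/- and 1198 and 1614 in WT for melanocyte, 611 and 747 in Vldlr-/- and 653 and 782 in WT for Müller glia, and 123 and 133 in Vldlr-/- and 106 and 121 in WT for macrophage markers. Summed red-cell markers in WT were at 1015 in rich and 285 in poor barcodes. Summed melanocyte markers were higher in rich barcodes, 2828 against 2186 in Vldlr-/- and 3010 against 2162 in WT. So were bipolar cell markers, 193 against 106 in Vldlr-/- and 335 against 132 in WT. Summed Müller glia markers were lower in rich barcodes, 708 against 841 in Vldlr-/- and 764 against 860 in WT. The part of depth, mitochondrial share and these markers in what follows was not tested.

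Other members moved with the Malat1 split at 2 months. Kcnq1ot1 was at 107 in Malat1-rich and 0.462 in Malat1-poor RPE-like barcodes of Vldlr-/- (402 and 2 UMIs, log2 7.54), and at 136 and 1.36 in WT (441 and 17 UMIs, log2 6.60). Neat1 was at 177 in rich and 10.9 in poor barcodes of Vldlr-/- (log2 4.02) and at 210 and 7.53 in WT (log2 4.79). Airn was at 27.7 in rich and 2.54 in poor barcodes of Vldlr-/- (log2 3.39) and at 16.9 and 0.801 in WT (log2 4.34). All 3 were over 10-fold higher in the Malat1-rich barcodes of both libraries. Otx2os1 was at 1207 in rich and 107 in poor barcodes of Vldlr-/- (log2 3.50), and at 1718 and 128 in WT (log2 3.75). Snhg3, the spliced host, was near equal on the 2 sides: 9.60 in rich and 8.55 in poor barcodes of Vldlr-/- (log2 0.17, -0.54 to 0.87), and 27.1 and 21.7 in WT (log2 0.32, -0.05 to 0.67). Of these 5 members, 4 passed 2-fold, beside 18.7% of all measured genes in Vldlr-/- and 22.2% in WT. The members were chosen by values of these same libraries, so nothing is read from that count.

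**Figure D3:**
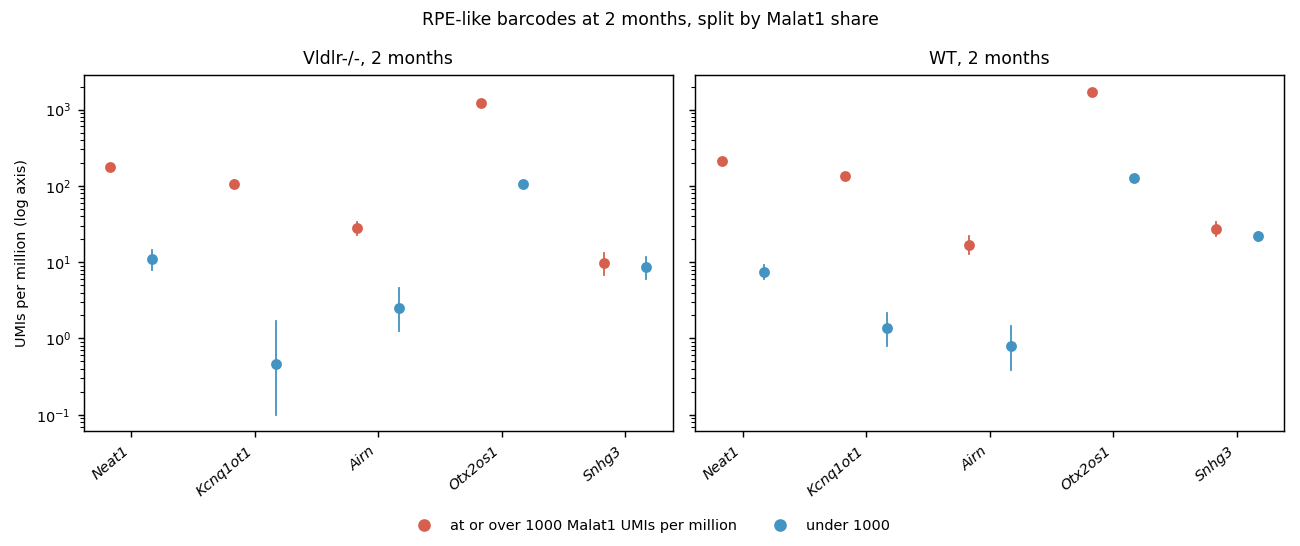
CPM (log axis) of 5 genes in RPE-like barcodes at 2 months with at least 1000 Malat1 CPM (red) and under 1000 (blue), with exact Poisson 95% intervals cut at the lower limit. Snhg3 is 9.60 against 8.55 in Vldlr-/- and 27.1 against 21.7 in WT, while Kcnq1ot1 is 107 against 0.462 and 136 against 1.36.

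Shares of barcodes gave the same order as the levels. After each barcode was thinned to 1000 UMIs, which left out 24 rich and 21 poor barcodes of Vldlr-/- and 16 rich and 23 poor of WT, Otx2os1 was found in 54.8% of rich and 8.39% of poor barcodes of Vldlr-/-. In WT it was found in 63.1% of rich and 10.9% of poor barcodes. Unthinned shares were 73.5% and 49.8% in Vldlr-/-, and 78.2% and 56.3% in WT. In fibroblast-like barcodes of the same age, a class outside the retina and pigment epithelium, Otx2os1 was in 2.79% at a median depth of 9092 UMIs in Vldlr-/- and 2.94% at 8899 UMIs in WT. Otx2os1 was thus above that background on both sides. Thinned shares of Kcnq1ot1 were 8.90% in rich and 0% (0 to 0.881) in poor barcodes of Vldlr-/-, and 12.1% and 0.0788% in WT.

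Lists of other genes were set beside the members on the same split. Of 11 measured nuclear long noncoding RNAs other than the members, 9 were at least 2-fold higher in Malat1-rich barcodes in each library, with a median log2 of 2.74 in Vldlr-/- and 3.36 in WT, beside 0.31 and 0.23 over all genes. Xist, which coats the inactive X chromosome, stood at 7.60 and 9.08, and Firre, which is also transcribed from the X chromosome, at 5.15 and 4.94. The microRNA hosts Mir99ahg (4.05 and 5.01) and Mir100hg (3.87 and 3.36) were among these 9. Tug1 (-0.16 and 0.08) and Peg13 (-0.23 and -0.42) did not pass 2-fold. Of 13 messages known to keep introns in the nucleus, 11 passed in Vldlr-/- and 10 in WT, with medians of 1.77 and 2.11. They included Ogt, the O-GlcNAc transferase (3.15 and 3.67), Nktr (2.13 and 2.79) and Pnisr (2.72 and 2.60). The well counted messages Son (1.57 and 1.48) and Srrm2 (1.32 and 1.55), for speckle proteins, passed as well, and Rbm39 (0.76 and 0.73) and Srsf5 (0.91 and 0.65) did not. Of 11 snoRNA host genes, 4 passed in Vldlr-/- and 2 in WT. Of 90 cytosolic ribosomal protein genes, 5 passed in Vldlr-/- and 6 in WT, with medians of 0.17 and -0.11. Mitochondrially encoded genes were higher, with 1 of 13 past 2-fold and a median of 0.92 in Vldlr-/-, and 12 of 13 and 1.55 in WT. These counts describe 1 library each and the libraries share no cells.

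Between genotypes, RPE-like barcodes at 2 months had 6 measured members, of which Malat1 and Airn were at least 2-fold higher in Vldlr-/- and Snhg3 at least 2-fold lower, beside 4.34% of all measured genes in either direction. The median log2 ratio was 0.81 over those members and 0.07 over all genes. Neat1 was at 88.1 in Vldlr-/- and 49.3 in WT (log2 0.84), and Kcnq1ot1 at 50.0 in Vldlr-/- and 29.1 in WT (log2 0.78). Within Malat1-rich barcodes alone, Neat1 was at 177 in Vldlr-/- and 210 in WT (log2 -0.24), and Kcnq1ot1 at 107 in Vldlr-/- and 136 in WT (log2 -0.34). Both were thus lower in Vldlr-/- on the rich side alone. On the poor side Neat1 was at 10.9 in Vldlr-/- and 7.53 in WT (log2 0.54, -0.01 to 1.05), and Kcnq1ot1 had too few UMIs for a ratio. Airn kept a higher level, 27.7 in Vldlr-/- and 16.9 in WT (log2 0.71). Otx2os1 was at 617 in Vldlr-/- and 456 in WT over the class (log2 0.44), but at 1207 in Vldlr-/- and 1718 in WT within rich (log2 -0.51) and at 107 and 128 within poor barcodes (log2 -0.26). At 1 month 3 members were measured in RPE-like barcodes, and Snhg3 alone passed 2-fold, beside 6.25% of all genes.

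Malat1 in fibroblast-like barcodes was at 58092 in Vldlr-/- and 65528 in WT at 1 month and at 25127 in Vldlr-/- and 23865 in WT at 2 months. The log2 ratios were small, -0.17 at 1 month and 0.07 at 2 months. Those of mural-like (0.00), endothelial-like (0.10) and macrophage-like (-0.14) barcodes at 2 months and of B-like (-0.14), T-like (-0.04) and rod-like (-0.11) barcodes at 1 month were also under 2-fold. Among classes with at least 30 barcodes, Neat1 had its highest medians in macrophage-like (267), mural-like (236) and fibroblast-like (235) barcodes, whose library ranges overlapped, and its lowest in RPE-like (33.8) and rod-like (10.8) barcodes. In macrophage-like barcodes at 2 months Neat1 was at 282 in Vldlr-/- and 267 in WT. It was lower in Vldlr-/- endothelial-like barcodes, at 126 in Vldlr-/- and 180 in WT (log2 -0.52, -0.82 to -0.21). In fibroblast-like barcodes it was at 274 in Vldlr-/- and 294 in WT at 1 month and at 159 in Vldlr-/- and 197 in WT at 2 months.

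Kcnq1ot1 had its highest medians in fibroblast-like (361) and rod-like (304) barcodes, which overlapped, followed by B-like (118), mural-like (113) and T-like (95.7) barcodes. It was lower in Vldlr-/- fibroblast-like barcodes at both ages: 457 in Vldlr-/- and 614 in WT at 1 month (log2 -0.43, -0.54 to -0.32), and 210 in Vldlr-/- and 266 in WT at 2 months (log2 -0.34, -0.54 to -0.14). Mural-like barcodes had 91.8 in Vldlr-/- and 135 in WT (log2 -0.55, -1.10 to -0.02). B-like barcodes had 121 in Vldlr-/- and 114 in WT, and T-like 94.0 and 97.3, so the lymphocyte intervals held 0. Kcnq1, the potassium channel gene that Kcnq1ot1 runs through, was counted mainly in endothelial-like barcodes, at 127 in Vldlr-/- and 143 in WT. In fibroblast-like barcodes, where Kcnq1ot1 was highest, Kcnq1 had 0 UMIs in both libraries at 1 month and was at 1.45 in Vldlr-/- and 4.28 in WT at 2 months.

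Airn was highest in mural-like barcodes, the pericytes and smooth muscle around vessels, with 410 in Vldlr-/- and 289 in WT at 2 months (log2 0.51, 0.21 to 0.80). In endothelial-like barcodes it was at 139 in Vldlr-/- and 94.8 in WT (log2 0.54, 0.18 to 0.92). Summed over barcodes, both vessel classes had more Airn in the Vldlr-/- library, by under 2-fold. Per barcode this did not hold for mural-like barcodes, whose median was 183 in Vldlr-/- (46 barcodes) and 216 in WT (55 barcodes). Airn was found in 63.0% of mural-like barcodes in Vldlr-/- and 70.9% in WT. For endothelial-like barcodes these shares were 47.4% and 37.8%. Fibroblast-like barcodes at 2 months had 186 in Vldlr-/- and 172 in WT (log2 0.11, -0.12 to 0.35). Igf2r, the receptor gene that Airn overlaps, was at 89.8 in Vldlr-/- and 62.5 in WT in mural-like barcodes, and at 56.9 in Vldlr-/- and 52.8 in WT in endothelial-like barcodes. In Malat1-rich RPE-like barcodes Igf2r was lower than in poor ones, with log2 values of -1.02 in Vldlr-/- and -0.94 in WT, where Airn was at 3.39 and 4.34. Intronic reads of either gene could be counted for the other if strand was not used.

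Meg3 was counted mainly in fibroblast-like barcodes, which held 95.05% of its UMIs in Vldlr-/- and 80.4% in WT at 1 month, and 58.4% in Vldlr-/- and 44.3% in WT at 2 months. Its level there was 394 in Vldlr-/- and 432 in WT at 1 month (log2 -0.14, -0.26 to -0.01), and 84.4 in Vldlr-/- and 115 in WT at 2 months (log2 -0.45, -0.77 to -0.13). The 2-month difference was one of summed UMIs. Meg3 was found in 44.7% of those barcodes in Vldlr-/- and 37.5% in WT, and the mean of per-barcode levels was 92.2 and 95.8. Among the fibroblast-like clusters at 1 month, the one led by Col1a1 and Pi16 had 981 in Vldlr-/- and 1770 in WT. A cluster led by Dcn, Apod, Myoc and Ccn2 had 282 in Vldlr-/- and 518 in WT, while the one led by Lum and Dcn had 190 in Vldlr-/- and 200.2 in WT. Meg3 thus varied more among fibroblast-like clusters than between the libraries. At 2 months mural-like barcodes were at 113 in Vldlr-/-, above the fibroblast-like ones of that library, and at 78.6 in WT (log2 0.53, -0.05 to 1.11), and endothelial-like barcodes had 29.5 in Vldlr-/- and 40.9 in WT. Dlk1, the growth regulator read from the other parental copy of this locus, was counted in endothelial-like barcodes with 6 UMIs in Vldlr-/- and 219 in WT, or 4.02 and 236 CPM.

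At 1 month the miR-124 hosts were counted mainly in rod-like barcodes, which held 97.3% of Mir124a-1hg UMIs in Vldlr-/- and 94.5% in WT. At 2 months they held 0% in Vldlr-/- and 0.982% in WT, and 2.10% and 6.11% of Mir124-2hg UMIs. Most host UMIs of that age lay in an unnamed cluster of 27 barcodes in Vldlr-/- and 70 in WT, described with the rod-like clusters. At 1 month Mir124a-1hg was at 2268 in Vldlr-/- and 1777 in WT rod-like barcodes (log2 0.35, 0.24 to 0.46). Mir124-2hg was at 2052 in Vldlr-/- and 1611 in WT (log2 0.35, 0.24 to 0.46). Both hosts were thus moderately higher in the Vldlr-/- library, and within Malat1-rich rod-like barcodes the log2 ratios were 0.06 for Mir124a-1hg and 0.16 for Mir124-2hg. At 1 month 428 of 479 rod-like barcodes of Vldlr-/- and 124 of 163 of WT were Malat1-rich, with 11 and 2 near the limit.

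The hosts parted on the Malat1 split. Mir124a-1hg was at 2477 in Malat1-rich and 19.1 in Malat1-poor rod-like barcodes of Vldlr-/- (4184 and 3 UMIs, log2 6.80), and at 2372 and 17.1 in WT (822 and 2 UMIs, log2 6.80). Mir124-2hg was at 2181 in rich and 661 in poor barcodes of Vldlr-/- (log2 1.72), and at 1948 and 614 in WT (log2 1.66). So Mir124-2hg was still plentiful in Malat1-poor rods, where Mir124a-1hg was nearly absent. Thinned to 1000 UMIs, Mir124a-1hg was in 84.9% of rich and 2.08% of poor barcodes of Vldlr-/- and in 89.8% and 2.70% in WT. Mir124-2hg was in 86.6% of rich and 41.7% of poor barcodes of Vldlr-/- and in 84.1% and 45.9% in WT. Unthinned, Mir124a-1hg was in 5.88% of poor barcodes of Vldlr-/- at a median of 3206 UMIs. Fibroblast-like and lymphocyte-like barcodes of that library, which should lack it, had it in 7.20% at a median of 6236 UMIs. In WT it was in 2.56% of poor barcodes at a median of 2975 UMIs, and in 1.20% of the other classes at 7097.5 UMIs. With 3 UMIs in Vldlr-/- and 2 in WT, a low level in Malat1-poor rods could not be told from background at this depth. Kcnq1ot1 had 361 in rich barcodes and 0 UMIs in poor barcodes of Vldlr-/-, at least 18.9-fold higher against a floor of 3 UMIs over the poor barcodes, and was at 404 and 8.53 in WT (140 and 1 UMIs).

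**Figure D4:**
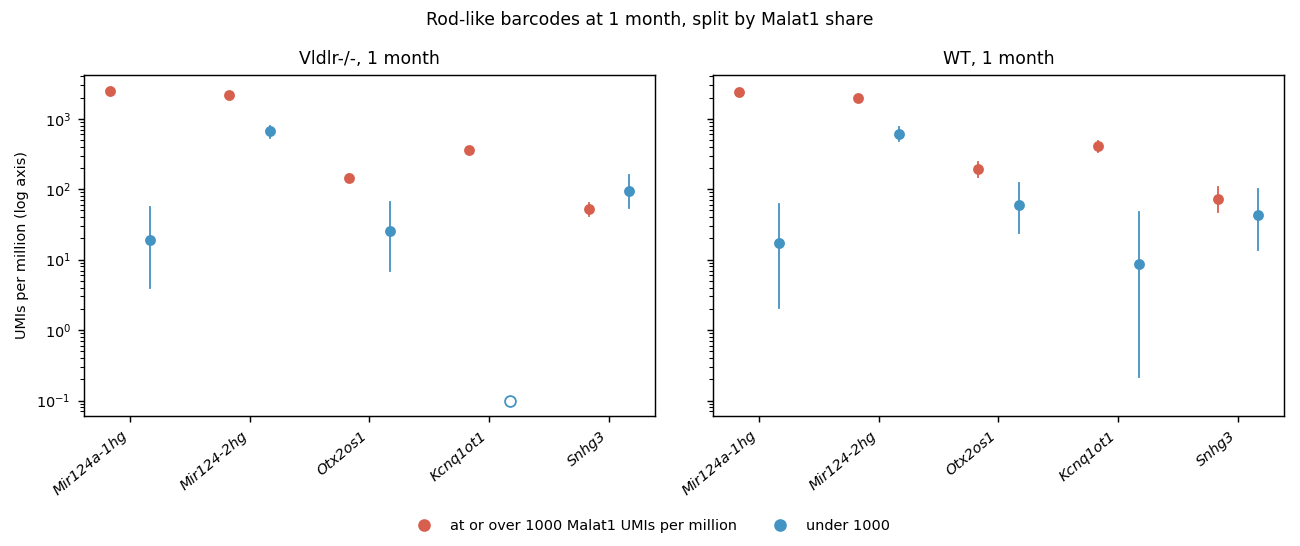
CPM (log axis) of 5 genes in rod-like barcodes at 1 month with at least 1000 Malat1 CPM (red) and under 1000 (blue), with exact Poisson 95% intervals; the open symbol is 0 UMIs. Mir124a-1hg is 2477 against 19.1 in Vldlr-/- and 2372 against 17.1 in WT, and Mir124-2hg 2181 against 661 and 1948 against 614.

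The Malat1-poor rod-like barcodes kept rod markers, with a median summed level of 53211 in rich and 88409 in poor barcodes of Vldlr-/-, and 40185 and 92645 in WT. Their median mitochondrial share was 4.28% in rich and 7.23% in poor barcodes of Vldlr-/- and 3.37% and 7.95% in WT, and the part of this in the result was not tested. Of the lists, 7 of 8 measured nuclear long noncoding RNAs were at least 2-fold higher in Malat1-rich rods of Vldlr-/- and 4 of 4 in WT, and 11 and 13 of 13 intron-keeping messages, beside 29.3% of all genes in Vldlr-/- and 27.5% in WT. Ribosomal protein genes had medians of -0.83 in Vldlr-/- and -1.16 in WT, and all genes 0.37 and 0.20. Otx2os1 was at 144 in rich and 25.4 in poor barcodes of Vldlr-/- (log2 2.33) and at 193 and 59.7 in WT (log2 1.61). Snhg3 was at 51.5 in rich and 95.3 in poor barcodes of Vldlr-/- (87 and 15 UMIs, log2 -0.93, -1.69 to 0.01) and at 72.1 and 42.7 in WT (25 and 5 UMIs, log2 0.65, -0.65 to 2.50), so both intervals held 0. At 2 months the rod-like class was small and mostly Malat1-poor, 22 of 22 barcodes in Vldlr-/- and 32 of 38 in WT. In those poor barcodes Mir124-2hg was at 449 in Vldlr-/- and 523 in WT, and Mir124a-1hg had 0 UMIs in both.

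The 3 rod-like clusters differed in the balance of the hosts. In the largest, Mir124a-1hg was at 2438 in Vldlr-/- and 2135 in WT at 1 month, and the ratio of Mir124a-1hg to Mir124-2hg UMIs was 1.09 in Vldlr-/- and 1.12 in WT. In a further cluster with the highest host levels, Mir124a-1hg was at 3949 in Vldlr-/- and 3874 in WT, and the ratio was 1.69 and 1.67. In the last the ratio was 0.552 in Vldlr-/- and 0.025 in WT. The balance of the hosts thus differed more between clusters than between genotypes in the first 2 of these clusters. The unnamed cluster of 2 months carried rod markers at 53081 in Vldlr-/- and 43785 in WT, beside cone markers at 1342 and 2653, and it was mostly Malat1-rich, with 3.70% of barcodes under the limit in Vldlr-/- and 17.1% in WT. Mir124a-1hg was at 1011 in Vldlr-/- and 971 in WT there (959 and 687 UMIs), and Mir124-2hg at 1169 and 1141 (1109 and 807 UMIs). Malat1-rich barcodes with rod markers and both hosts were therefore present at 2 months too, outside the rod-like class.

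In fibroblast-like and lymphocyte-like barcodes the hosts were taken as possible background, which was not tested. In fibroblast-like, B-like, T-like and NK-like barcodes together Mir124a-1hg was at 11.8 in Vldlr-/- and 1.73 in WT at 1 month, where rod markers were at 386 in Vldlr-/- and 140 in WT. At 2 months it was at 0 in Vldlr-/- and 2.69 in WT, with rod markers at 23.4 and 31.6. The hosts were 2 of the 8 members measured in fibroblast-like barcodes at 1 month and the only ones past 2-fold there, beside 3.51% of all genes: Mir124a-1hg at 14.8 in Vldlr-/- and 2.55 in WT, and Mir124-2hg at 15.1 and 2.97. Rod-like barcodes were also more numerous in that Vldlr-/- library, 479 against 163. The gap in Mir124a-1hg, 11.8 against 1.73, was wider than that in rod markers, 386 against 140. Whether background RNA from rods has a part in these ratios was not tested, and they are not given as expression.

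Otx2os1 was counted mainly in RPE-like barcodes at 2 months, which held 83.9% of its UMIs in Vldlr-/- and 89.6% in WT, and mainly in rod-like barcodes at 1 month, which held 90.1% in Vldlr-/- and 56.9% in WT. The median over libraries was 269 in RPE-like, 134 in rod-like and 16.9 in endothelial-like barcodes. RPE-like levels were 61.3 in Vldlr-/- and 81.3 in WT at 1 month (log2 -0.39, -1.19 to 0.34), so RPE-like and rod-like ranges overlapped. At 2 months the unnamed cluster with rod markers had 885 in Vldlr-/- and 994 in WT, above the RPE-like class (617 in Vldlr-/- and 456 in WT). Otx2os1 in rods was at 134 in Vldlr-/- and 160 in WT at 1 month (log2 -0.26, -0.63 to 0.14). Otx2, its partner, was at 418 in Vldlr-/- and 451 in WT at 1 month and at 686 in Vldlr-/- and 705 in WT at 2 months in RPE-like barcodes. Otx2 differed little over the Malat1 split of RPE-like barcodes, with log2 values of 0.11 in Vldlr-/- and 0.24 in WT, where Otx2os1 had 3.50 and 3.75. In endothelial-like barcodes Otx2os1 was at 29.5 in Vldlr-/- and 4.31 in WT (44 and 4 UMIs, log2 2.62), but those UMIs came from 4 barcodes in each library.

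Snhg3 could be measured in 9 of the 10 class and age pairs, and it was lower in the Vldlr-/- library in each of the 9. The 95% counting interval lay below 0 in 7 of them, the exceptions being B-like (log2 -0.20, -0.59 to 0.19) and rod-like barcodes (log2 -0.24, -0.83 to 0.41) at 1 month. Its level in fibroblast-like barcodes was 77.6 in Vldlr-/- and 124 in WT at 1 month (231 and 293 UMIs, log2 -0.68, -0.94 to -0.43). At 2 months it was 15.5 in Vldlr-/- and 65.6 in WT (32 and 92 UMIs, log2 -2.06, -2.71 to -1.48). In mural-like barcodes it was at 7.81 in Vldlr-/- and 43.3 in WT (4 and 27 UMIs, log2 -2.33, -4.45 to -0.95). The Vldlr-/- library was thus the lower one in both stromal classes. In endothelial-like barcodes it was at 9.38 in Vldlr-/- and 34.5 in WT (log2 -1.85, -2.90 to -0.93). RPE-like barcodes had 26.6 in Vldlr-/- and 56.4 in WT at 1 month (10 and 34 UMIs, log2 -1.03, -2.26 to -0.03), and 9.04 in Vldlr-/- and 22.8 in WT at 2 months (73 and 359 UMIs, log2 -1.33, -1.72 to -0.97). T-like barcodes had 64.3 in Vldlr-/- and 91.2 in WT (log2 -0.50). Snhg3 passed 2-fold in 4 of 4 measured classes at 2 months and in 1 of 5 at 1 month. All of these classes came from the same pair of libraries at each age, so they are not separate observations of the genotype.

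In RPE-like barcodes at 2 months the Snhg3 ratio did not follow the Malat1 split. Within Malat1-rich RPE-like barcodes at 2 months it was at 9.60 in Vldlr-/- and 27.1 in WT (log2 -1.48), and within Malat1-poor ones at 8.55 and 21.7 (log2 -1.33). In the pair of largest RPE-like clusters the log2 ratios were -1.12 and -0.96. The 1-month counts were too low to compare the sides. Poor RPE-like barcodes stood at -0.48 (-1.75 to 0.60) and rich rod-like ones at -0.51 (-1.14 to 0.22). Poor rod-like barcodes had 15 UMIs in Vldlr-/- and 5 in WT, too few for a ratio, at 95.3 and 42.7 CPM. An unnamed cluster led by Lyz2 and Ear2, of 104 barcodes in Vldlr-/- and 134 in WT at 1 month, had 17.2 in Vldlr-/- and 54.5 in WT (log2 -1.64). Over the whole libraries Snhg3 was at 58.0 in Vldlr-/- and 84.7 in WT at 1 month (log2 -0.55) and at 11.01 and 29.02 at 2 months (log2 -1.39). Rcc1, which overlaps it, was at 7.38 in Vldlr-/- and 5.44 in WT at 1 month (log2 0.44) and at 3.49 and 1.97 at 2 months (log2 0.82). The other 15 snoRNA host genes ranged from -0.53 to 1.12 at 1 month and from -0.06 to 0.98 at 2 months over the whole libraries. Gas5, a well counted host, stood at -0.31 and -0.06. In fibroblast-like barcodes at 2 months 0 of 14 hosts passed 2-fold (median 0.04), and in RPE-like barcodes 0 of 13 (median 0.09).

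**Figure D5:**
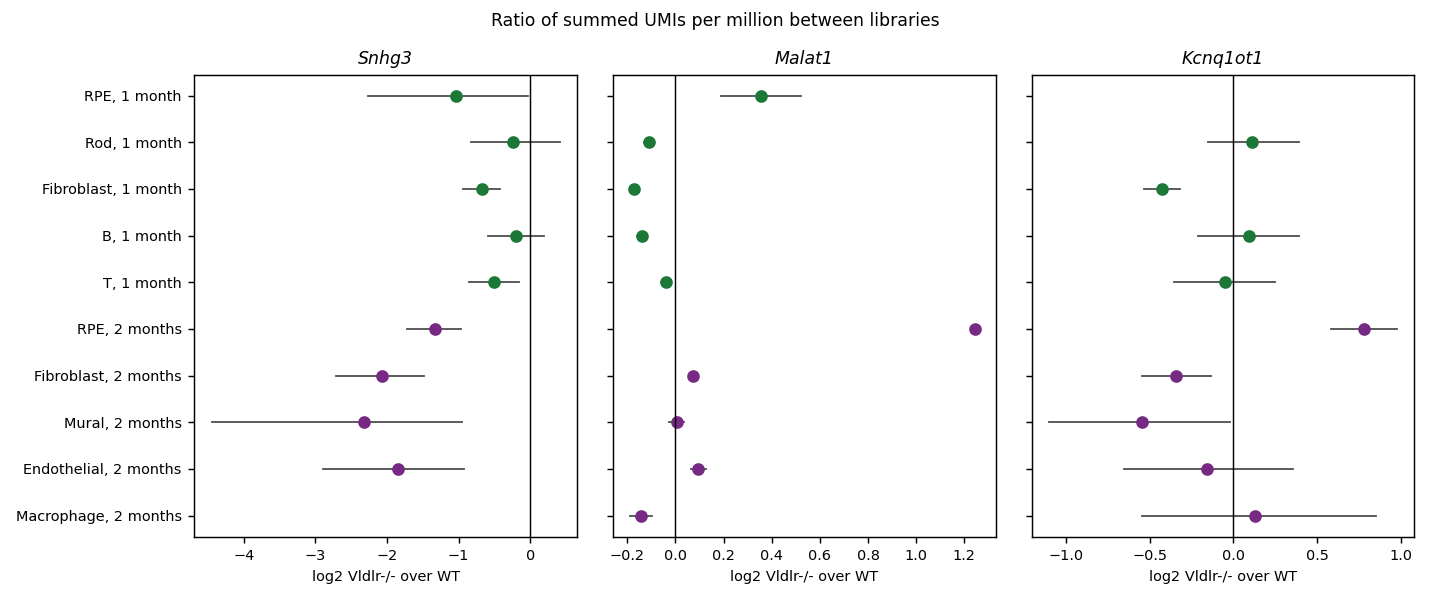
Log2 ratio of CPM, Vldlr-/- over WT (horizontal), of Snhg3, Malat1 and Kcnq1ot1 in each class and age with enough counts; green points are 1 month, purple 2 months, and bars are exact 95% intervals of counting error. All 9 Snhg3 points lie below 0, and Malat1 stands at 1.25 in RPE-like barcodes at 2 months and between -0.17 and 0.36 elsewhere.

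Counts past 2-fold in the remaining classes stand beside their backgrounds. In B-like, T-like and rod-like barcodes at 1 month 0 of 4, 0 of 4 and 0 of 8 measured members passed, beside 2.32%, 2.63% and 5.07% of all genes. In macrophage-like barcodes at 2 months 0 of 3 passed, beside 7.09%. Snhg3 was the 1 member past 2-fold of 6 in fibroblast-like barcodes (3.84% of all genes) and of 6 in mural-like barcodes (4.89%) at 2 months. In endothelial-like barcodes Otx2os1 was higher and Snhg3 lower among 7 members (5.2%). Since the members were chosen on these contrasts, nothing is read from the counts.

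Between ages the members shifted in both genotypes, but the 1-month and 2-month tables were made with different software versions, so age and version cannot be told apart. In fibroblast-like barcodes the log2 ratio of 2 months over 1 month for Airn was 2.53 in Vldlr-/- and 2.87 in WT. Those of Malat1 were -1.21 and -1.46, of Kcnq1ot1 -1.12 and -1.21, of Meg3 -2.22 and -1.90, of Neat1 -0.79 and -0.57, and of Snhg3 -2.30 and -0.92. Airn, with 3.03% of its locus in exons, was the member of these 6 that was higher at 2 months in this class. In RPE-like barcodes fully exonic members were higher at 2 months as well. Malat1 was higher by 3.32 in Vldlr-/- and 2.43 in WT, Neat1 by 2.59 and 1.37, and Kcnq1ot1 by 2.42 and 2.81. Airn there had 0 CPM at 1 month and 14.2 at 2 months in Vldlr-/-, and 3.32 and 4.13 in WT. Otx2os1, with 1.31% of its locus in exons, was higher by 3.30 in Vldlr-/- and 2.48 in WT over the class. In Malat1-poor RPE-like barcodes Otx2os1 was at 63.3 and 107 in Vldlr-/- at 1 and 2 months, and at 85.4 and 128 in WT. The part of introns in these shifts was not tested. Different clusters held the fibroblasts of each age: the cluster led by Dcn, Apod and Myoc had 2 barcodes in Vldlr-/- and 0 in WT at 1 month, and 146 in Vldlr-/- and 116 in WT at 2 months.

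Across 23 groups of a class in a library with at least 30 barcodes, the genes most like each member were named by Pearson r of log2 levels, a description over groups that share 4 libraries and their depth. Malat1 was nearest to Kcnq1ot1 (0.94) and to Rsf1, a chromatin remodelling factor (0.92). Neat1 was nearest to the transcription factor Zeb2 (0.95) and the actin regulator Wasf2 (0.92), and Kcnq1ot1 to Xndc1 (0.94) and Malat1. Airn was nearest to Gucy1a2, a subunit of the nitric oxide receptor (0.96), and to Farp1 (0.95). Meg3 was nearest to the transcription factor Tbx18 and the chemokine Ccl19 (0.98 each). The pattern of Mir124a-1hg was nearest to Tub (0.98) and Rnf207 (0.97), and that of Mir124-2hg to Neurod1, a transcription factor of photoreceptors, and Pcare, a photoreceptor outer segment gene (0.996 and 0.994). Otx2os1 was nearest to Pak7 (0.94) and Cfap54 (0.93). Snhg3 had no close match, with 0.79 for Ramac and for the RNA-binding protein gene Hnrnpa2b1.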

How the data were processed

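Per the file headers, the deposited tables are raw UMI counts per gene and barcode, made by the authors with Cell Ranger 6.0.2 at 1 month and 7.0.1 at 2 months; other columns hold gene and barcode names. Cell Ranger 3.0, Seurat 4.0 and mm9 stand in the submitters' processing notes. No source used here says whether reads in introns were included. Of 32285 gene IDs, 32158 matched GENCODE M21 (GRCm38), the source of coordinates and sequences. Doublet calls of Scrublet in scanpy 1.11.5 (26 of 6555 barcodes, 0.397%, too few for the caller to count as having worked) were removed. Clustering used 2000 variable genes without the members, 30 components, 15 neighbours and Leiden resolution 1. A cluster was named after the class with the highest mean marker score, if at least 3 and over 50% of its markers were in 10% of barcodes or more and at least 1 led; this rule was written after the clusters were seen. Summed counts gave levels and intervals (scipy 1.17.1); with 1 library per group no test was made, and the ratio intervals were checked on simulated data. All 9 members are named; other genes are the 2 most like each member (Pearson r of log2 of CPM plus 10, at least 300 UMIs), up to 4 of each list by UMIs, the partners Igf2r, Kcnq1, Otx2 and Dlk1, Rcc1 and Vldlr. Ogt, Nktr, Pnisr, Firre, Tug1, Peg13, Mir99ahg and Mir100hg were picked after their values were seen where that rule did not reach them. Members and lists were chosen with earlier results of these data known.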

Additional observations from a re-analysis of the deposited data

Results flagged for a closer look

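The Malat1 ratio of fibroblast-like barcodes differed between ages. The log2 ratio of Vldlr-/- over WT was -0.17 at 1 month and 0.074 at 2 months, so the sign turned while both values stayed well under 2-fold, and the counting intervals, -0.18 to -0.16 and 0.05 to 0.09, lay on opposite sides of 0. The difference between the ages was not tested, since each age has 1 library per genotype, and the fibroblast-like clusters that hold most barcodes differ between the ages.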

How the results depend on the processing

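The Snhg3 ratio in RPE-like barcodes kept its direction under each alternative run, from -1.71 (thinned) to -1.02 at 1 month, where the reported value is -1.03, and from -1.40 to -1.12 at 2 months. The Malat1 ratio at 1 month, 0.36, moved to 0.74 at a limit of 15% mitochondrial UMIs, to 0.78 with at least 1000 genes per barcode, with the members among the clustering genes or without the 89 barcodes of highest doublet score, to 1.39 with RPE barcodes defined by markers alone and to 0.10 after thinning. It reversed to -0.074 at Leiden resolution 0.5 and to -0.079 as a mean of per-barcode shares. The cause was not tested. At 2 months, 1.25, it was 1.54 at 15% mitochondrial UMIs, 1.21 by markers alone and without the 89 barcodes, 1.30 thinned and 1.29 as a mean of shares. The share of RPE-like barcodes under 1000 Malat1 CPM moved to 86.5% (at least 1000 genes) and 59.0% (thinned) in Vldlr-/- and to 67.7% (thinned) in WT at 1 month. At 2 months it moved to 75.6% (15% mitochondrial) and 61.8% (thinned) in Vldlr-/-, and to 91.6%, 90.5% (at least 1000 genes) and 80.5% (thinned) in WT. In a barcode thinned to 1000 UMIs, 1 Malat1 UMI is already 1000 CPM. The thinned values are therefore shares of barcodes with 0 Malat1 UMIs, not the same measure as the unthinned share. Over all alternative runs of these ratios and shares, 43 values kept to their counting interval, 19 moved and 2 reversed. Of the other values, 258 kept to their counting interval and 16 moved. Leaving out the barcode with most Malat1 in each library, chosen after seeing the data, gave 0.51 and 1.24 for Malat1 and -1.02 and -1.35 for Snhg3. No paired analysis was possible because each group has 1 library. Depth limits Snhg3 in single classes, often under 40 UMIs in Vldlr-/-.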

Other observations

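Some clusters that no marker rule named, or that few barcodes filled, also held members. A cluster led by Gpx3, Penk and Optc, with 24 barcodes in Vldlr-/- and 86 in WT at 2 months, had Kcnq1ot1 at 365 in Vldlr-/- and 294 in WT and Neat1 at 305 and 378. Snhg3 was at 11.6 in Vldlr-/- and 32.4 in WT. Neutrophil-like barcodes, 3 to 8 per library, had Neat1 at 2024 in Vldlr-/- and 4824 in WT at 1 month and at 2797 in Vldlr-/- and 1097 in WT at 2 months. Melanocyte-like barcodes at 2 months had Neat1 at 1017 in Vldlr-/- (26 barcodes) and 960.0 in WT (10 barcodes).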
